A study of Homo sapiens with 3 samples.

Results

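The genes described here are 45 genes of DNA replication and of entry into S phase, chosen by their known function, although with earlier results of these data known. They were followed in A549, a human cell line derived from an adenocarcinoma of the lung. For 48 h the cells received either DMSO at 0.1% as the vehicle control, 60 μg/mL of cordycepin, or 100 μg/mL of cordyceps. Cordycepin is a nucleoside analog of adenosine, first isolated from a Cordyceps fungus, and the cordyceps preparation is given by the labels by that name alone. All 3 cultures shared a medium with fetal bovine serum, nicotinamide, troglitazone and zinc sulfate. The methods of the paper name only DMEM with fetal bovine serum and penicillin-streptomycin. Total RNA of each condition was hybridized to 1 single-colour Agilent array, so n = 1 throughout, no test between conditions was possible and every difference below is a difference between arrays. Through the accessions of their probes, 44 of the 45 genes were found among the 22435 genes that could be named on the arrays, and no probe was matched to POLA2.

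DNA replication begins in G1, when the origin recognition complex with CDC6 and CDT1 loads the MCM helicase onto origins. At the G1/S boundary, cyclin E and CDK2 release the E2F transcription factors from RB, and E2F then drives many genes of the replication machinery. The helicase is switched on by CDC45 and the GINS complex, and polymerases, the PCNA clamp with its loader and the enzymes that supply nucleotides copy the strands. Transcripts of these genes are known to peak around S phase, so in a bulk RNA sample a lower signal from fewer cycling cells and one from less transcript in each cell cannot be told apart.

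Signals were compared after each array's log2 values had been reduced by their 75th percentile, a signal of 260.1 for control, 224 for cordycepin and 260.2 for cordyceps. Signals printed for each array are those before this step, while ratios and folds are those after it unless another setting is named. The percentile was lower with cordycepin, so a ratio with cordycepin is higher than the printed signals alone give. A slightly lower printed signal can thus go with a ratio above 0. Each gene is given by its brightest probe, and levels are compared for a gene between arrays, never between genes. A gene was called at a difference of 2-fold or more. Where its probe was well above background on 1 array alone, the value is a bound, set against the higher of the dim value and the lowest signal well above background on that array, which was 18.6, 21.8 and 34.5 on the control, cordycepin and cordyceps arrays. Of the 44 genes, 43 were well above background in control cells, 44 with cordycepin and 37 with cordyceps. The technical SD of a ratio from a single probe, in log2 units and estimated from the 2 brightest probes of 3356 genes, was 0.25 with cordycepin and 0.20 with cordyceps. It holds no variation between cultures. A corner of the cordyceps array had an outlying local background at 11.2% of its spots, compared with 0% there on the other arrays. Of the 44 probes, 3 lie entirely in that corner (ORC1, TYMS and E2F2), 6 have some of their 10 spots in it, and 35 have none. All 10 epithelial and A549 markers were well above background on the 3 arrays, among them KRT8, KRT18 and AKR1B10, although EPCAM had a log2 ratio of -1.51 with cordycepin. Of 11 markers of blood, endothelium, fibroblasts, muscle, glia and liver, 6 were not well above background on the control and cordycepin arrays and 8 on the cordyceps array, including CD3E, PECAM1, COL3A1, GFAP and ALB. The 5 that were above it in control cells were PTPRC, VWF, CDH5, COL1A1 and DES, and over the whole list the signals summed to 1270.2, 1116 and 1029 on the 3 arrays. Single markers ran from 4.78 to 692 in control cells, from 5.48 to 666 with cordycepin and from 7.99 to 602 with cordyceps.

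A sequence feature that many of these genes share lies just before their annotated starts. E2F sites were searched as the 8-letter words TTTCCCGC, TTTGGCGC, TTTCGCGC and TTTGCCGC on either strand, in RefSeq windows of 300 bases (GRCh38.p14) from 250 bases before to 50 after each annotated start. The words can overlap each other on opposite strands. Windows were found for 39 of the 45 genes, some with several starts, and 24 of the 53 windows (45.3%) held at least 1 word, compared with 3.31% of all 35116 windows. Among other windows the share was 28.0% for the other replication genes described below, 7.69% for further genes of G1/S control and 7.32% for mitosis genes. Of the 32 matches in windows of these genes, 18 began within 60 bases before the start. Counted by gene, 59.0% of the 39 genes held an E2F word, compared with 3.99% of all 27305 genes. The CCAAT box (CCAAT) was found for 59.0% of the 39 genes and 39.7% of all genes, and the GC box (GGGCGG) for 76.9% and 48.3%, both searched on either strand. Shown are the 150 bases before the start for 4 genes that were at least 2-fold lower with cordyceps and hold an E2F word there, and for PRIM1, which holds none and was nearly level with control. These genes were picked by their ratios and do not stand for the list. With cordyceps the median log2 ratio was -0.92 for genes with a word in their windows and -0.94 for genes without. Capitals mark the E2F words on either strand. The stretches are chr20:33686386-33686535 on the minus strand for E2F1, chr16:85688955-85689104 on the minus strand for GINS2, chr2:135876444-135876593 on the minus strand for MCM6, chr18:657503-657652 on the plus strand for TYMS and chr12:56752324-56752473 on the minus strand for PRIM1.
E2F1: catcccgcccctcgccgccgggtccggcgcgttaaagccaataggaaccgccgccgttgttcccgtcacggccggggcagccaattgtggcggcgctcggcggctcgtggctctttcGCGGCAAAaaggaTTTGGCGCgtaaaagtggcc
GINS2: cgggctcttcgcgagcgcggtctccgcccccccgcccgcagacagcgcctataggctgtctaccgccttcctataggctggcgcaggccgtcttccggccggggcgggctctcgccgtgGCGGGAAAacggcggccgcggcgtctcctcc
MCM6: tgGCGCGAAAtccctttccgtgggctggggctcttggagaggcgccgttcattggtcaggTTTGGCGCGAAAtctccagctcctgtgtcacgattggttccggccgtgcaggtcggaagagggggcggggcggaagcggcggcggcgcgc
TYMS: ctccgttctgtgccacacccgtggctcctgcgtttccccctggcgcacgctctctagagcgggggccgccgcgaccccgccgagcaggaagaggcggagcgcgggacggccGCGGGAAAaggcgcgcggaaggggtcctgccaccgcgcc
PRIM1: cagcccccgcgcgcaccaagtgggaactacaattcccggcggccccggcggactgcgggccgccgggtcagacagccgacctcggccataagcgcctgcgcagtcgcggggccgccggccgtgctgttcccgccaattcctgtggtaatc

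With cordycepin, the replication and G1/S genes lay slightly above control as a group. The median log2 ratio of the 44 genes was 0.41, or 1.33-fold, while the median over the 15917 named genes measured was -0.05. The ratio was above 0 for 37 of the 44 genes, compared with 45.1% of all named genes. Sizes were small: 2 genes, CCNE2 and MCM10, were 2-fold or more higher (4.55%), near the 5.95% of all genes, and both calls ended under median scaling (log2 ratios of 0.85 and 0.75), no scaling (0.90 and 0.80) and normexp background correction (0.63 and 0.59). MCM10 also fell short under quantile normalization (0.97). None was 2-fold lower, where 3.57% of all genes were. At 1.5-fold, 11 of 44 genes (25%) were higher, compared with 13.3% of all genes, and 1, ORC1, was lower, compared with 11.8%. Of the 44 ratios, 13 lay more than 2 SD of a single probe (0.50) above 0 and 1 lay as far below. Over all named genes, 84.1% lay at or below 0.5 and 15.4% at or below -0.5.

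With cordyceps, nearly all of the same genes lay below control. The median log2 ratio of the 43 genes measured was -0.97, a median of 1.96-fold lower, compared with -0.12 over 15602 named genes. The ratio was below 0 for 42 of the 43, compared with 59.6% of all named genes. A fall of 2-fold or more was called for 18 genes (41.9%), where 3.15% of all genes were called, and 34 genes were at least 1.5-fold lower (79.1%), where 12.5% of all genes were. None was 2-fold higher, where 4.19% of all genes were. Among the 34 genes measured whose probes have no spot in the marked corner, the median was -0.91 and 13 were called lower. The comparisons share the control array, so a control value that is high or low by error moves both ratios of a gene the same way. Set side by side, 35 of the 43 genes were above control with cordycepin and below it with cordyceps, 7 were below it with both, and CCND1 was above it with both, by 0.02 with cordyceps. On the scaled levels, the cordyceps array was the lowest of the 3 for 41 of the 44 genes and the cordycepin array the highest for 37.

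**Figure D1:**
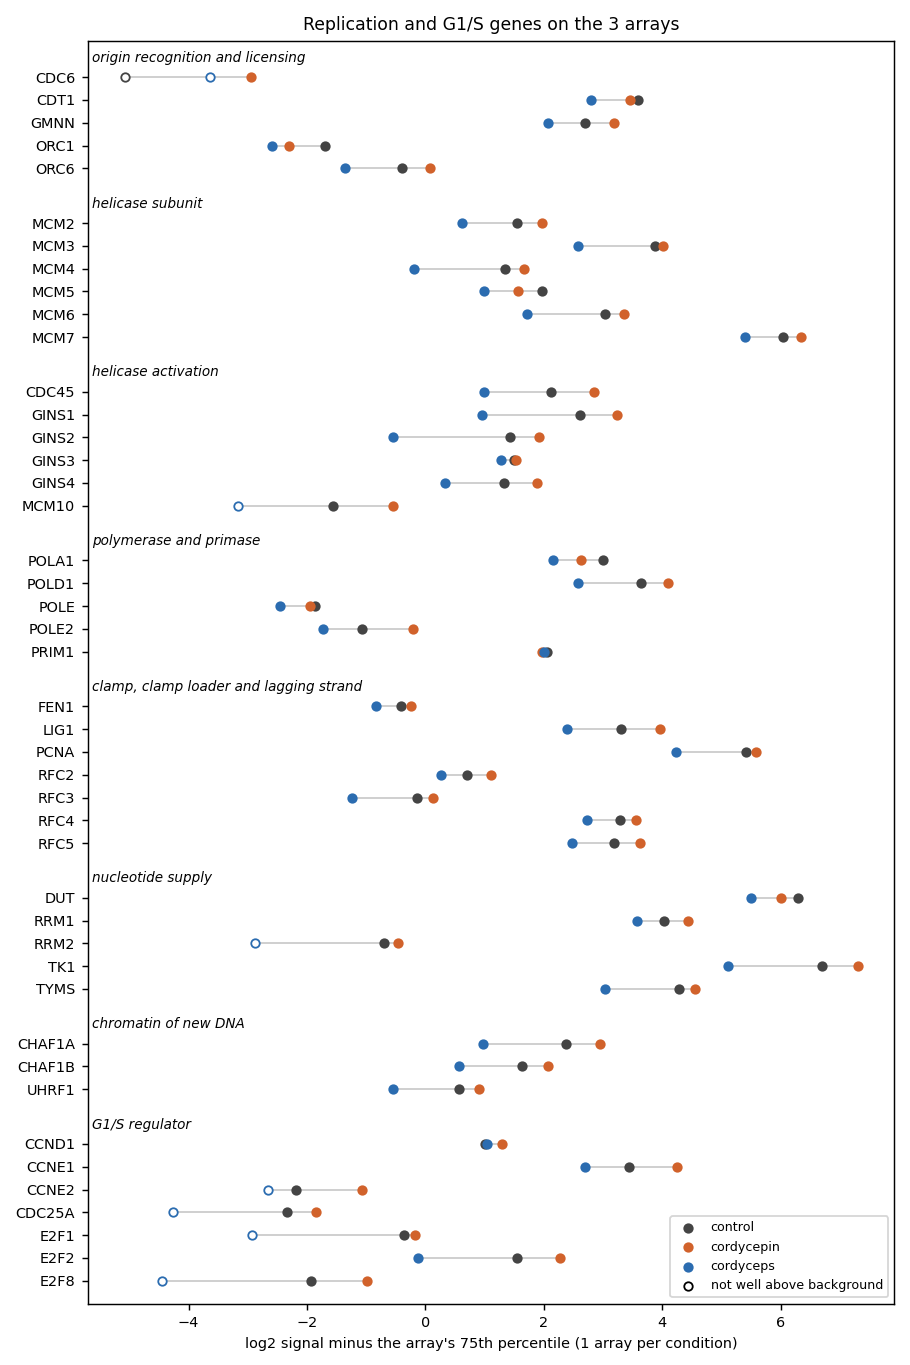
Level of each of the 44 genes on the control, cordycepin and cordyceps arrays, as log2 signal minus the 75th percentile of the array, by role; open circles were not well above background, and levels are to be compared within a row. The cordyceps array is the lowest for 41 genes and the cordycepin array the highest for 37, while PRIM1 and CCND1 hardly differ between control and cordyceps.

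Licensing of origins comes first. ORC1 and ORC6, subunits of the origin recognition complex, lay on opposite sides of control with cordycepin. The dim probe of ORC1 gave 80.3 for control, 45.2 for cordycepin and 43.0 for cordyceps, log2 ratios of -0.61 and -0.90, and lies in the marked corner. ORC6 had 199 in control cells, 238 with cordycepin and 101 with cordyceps, log2 ratios of 0.47 and -0.97. CDT1, which brings the helicase to the origin, had signals of 3148, 2469 and 1812 on the control, cordycepin and cordyceps arrays, with log2 ratios of -0.14 and -0.80. Its inhibitor geminin, the product of GMNN, had 1691, 2054 and 1091, with ratios of 0.49 and -0.63. CDC6, the other loading factor, gave a signal well above background with cordycepin alone, where it was 29.0 and at least 1.80-fold higher than in control cells. The CDC6 probe is therefore uninformative for cordyceps. None of these 5 genes was called with either agent.

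The 6 subunits of the MCM helicase had median log2 ratios of 0.31 with cordycepin and -1.14 with cordyceps. MCM2 gave signals of 759, 881 and 402 on the control, cordycepin and cordyceps arrays, MCM3 gave 3808, 3620 and 1563, and MCM4 gave 659.9, 713 and 227. MCM6 gave 2127, 2307 and 854. In each of these 4 the cordyceps array stood well below the other 2, with log2 ratios of -0.92 for MCM2, -1.29 for MCM3, -1.54 for MCM4 and -1.32 for MCM6, of which the last 3 were called. The share of all named genes called lower was 3.15%. MCM5 was lower with both agents: its signals were 1021, 664 and 515, with log2 ratios of -0.41 and -0.99. MCM7 showed the smallest difference with cordyceps among the subunits, from 17232 in control cells to 11003, a log2 ratio of -0.65, and had 18219 with cordycepin.

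Factors that activate the helicase had median log2 ratios of 0.59 with cordycepin and -1.24 with cordyceps. With cordyceps 4 of the 6 were called lower, compared with 3.15% of all named genes. CDC45, which travels with the helicase at the fork, had signals of 1128, 1612 and 518 on the control, cordycepin and cordyceps arrays, 1.66-fold higher with cordycepin and 2.18-fold lower with cordyceps. The GINS complex has 4 subunits, and 3 of them followed the same order. GINS1 gave 1594, 2122 and 506, 3.15-fold lower with cordyceps. GINS2 gave 699.5, 854 and 178, 3.94-fold lower, and GINS4 gave 656, 827 and 329.6, 1.99-fold lower. GINS3 stood apart, with 736, 645 and 633 and log2 ratios of 0.02 and -0.22. MCM10, which helps to open the active helicase, was dim: it gave 88.3 in control cells and 153 with cordycepin, 2.01-fold higher, and was not well above background with cordyceps, at least 2.56-fold lower than in control cells. The calls of MCM10 under normexp (-0.58) and of CDC45 under median scaling (-0.86) were lost with cordyceps.

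Polymerase and primase genes had the smallest medians of the 8 roles, -0.08 with cordycepin and -0.66 with cordyceps. POLA1, the catalytic subunit of the primase-bound polymerase alpha, had signals of 2086, 1385 and 1160.5, lower with both agents at log2 ratios of -0.38 and -0.85. PRIM1, the primase that makes the RNA primer, had 1078, 877 and 1041, with log2 ratios of -0.08 and -0.05 that lie within the spread of a single probe. POLD1, the catalytic subunit of the lagging-strand polymerase delta, had 3249, 3855 and 1559, and its fall of 2.08-fold with cordyceps was the only call of this role. That call was lost under median scaling (-0.79), with the 75th percentile of commonly detected probes (-0.97), under quantile normalization (-0.96), under normexp (-0.99) and without the corner (-0.95), so the fall of POLD1 lies at the threshold. POLE and POLE2, subunits of the leading-strand polymerase epsilon, were dim: POLE had 71.7, 58.0 and 47.3, and POLE2 had 125, 194 and 78.8. The ratio of POLE2 with cordycepin, 0.85, was the highest of the role.

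**Figure D2:**
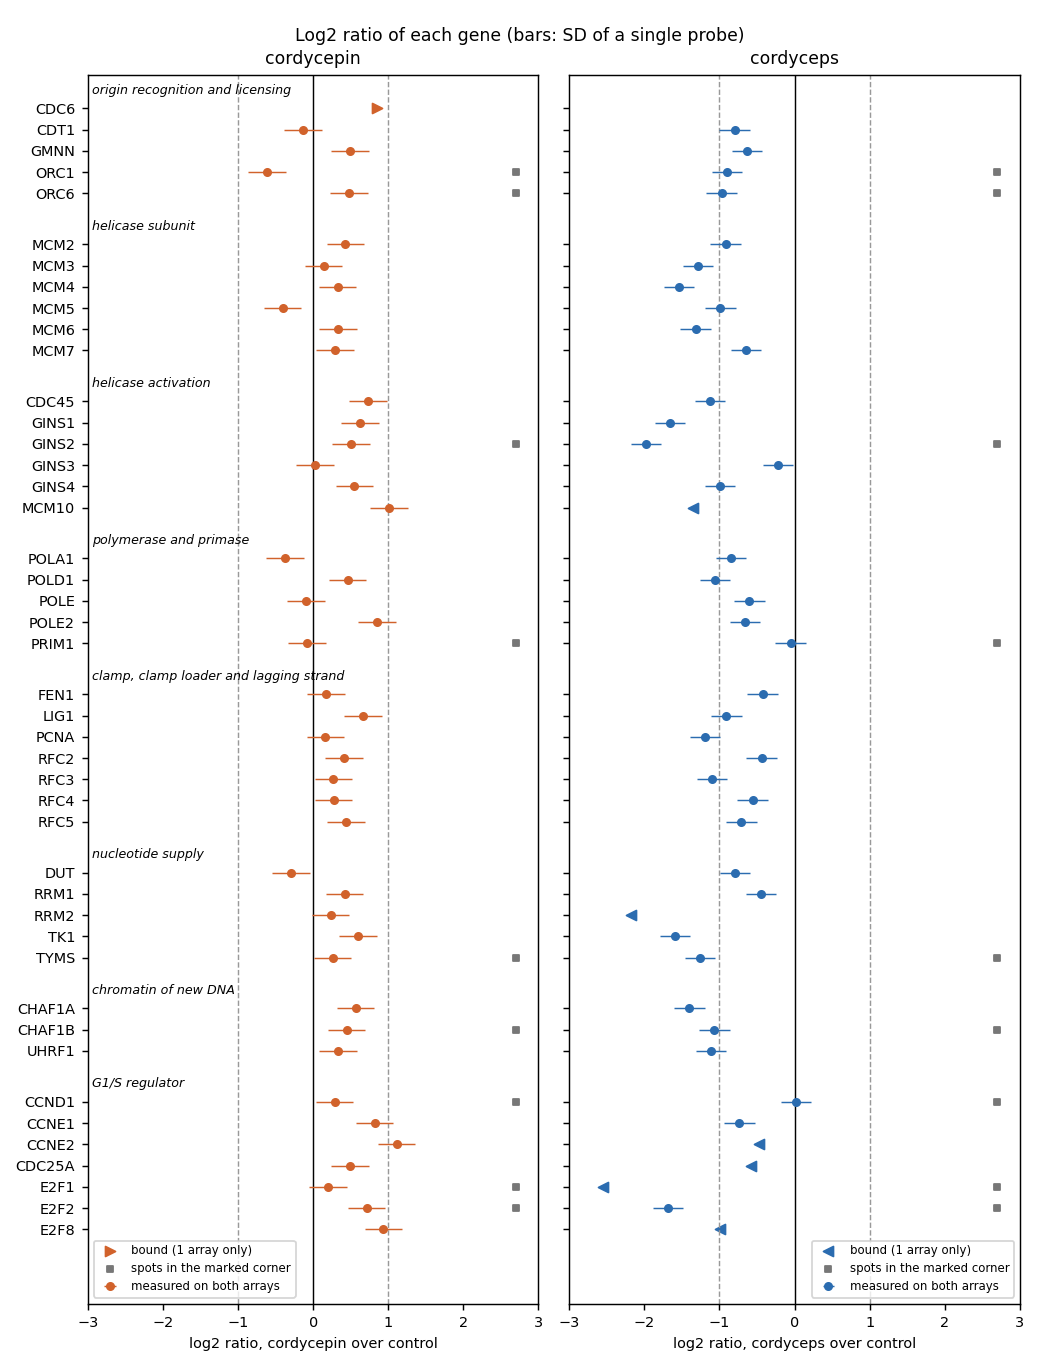
Log2 ratio of each gene over control with cordycepin (left) and cordyceps (right), grouped by role; bars are ± 1 SD of a single probe (0.25 and 0.20), triangles are bounds, dashed lines mark 2-fold and squares at the right mark genes with spots in the corner. Points lie mostly to the right of 0 with cordycepin (37 of 44) and to the left with cordyceps (42 of 43), where 18 pass the 2-fold line.

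The clamp and its loader were lower with cordyceps to unequal extents. PCNA, the sliding clamp, had signals of 11137, 10756 and 4885 on the control, cordycepin and cordyceps arrays, 2.28-fold lower with cordyceps. Of the loader subunits, RFC3 had 237, 246 and 110.4, 2.15-fold lower, while RFC2, RFC4 and RFC5 had log2 ratios of -0.44, -0.56 and -0.71. Under median scaling PCNA (-0.92) and RFC3 (-0.83) were no longer called, and RFC3 was not called under normexp (-0.73) or without the corner (-0.99). LIG1, the ligase that seals Okazaki fragments, had 2569, 3509 and 1371, with log2 ratios of 0.66 and -0.91. FEN1, the nuclease that trims those fragments, had 196, 190.1 and 146, with ratios of 0.17 and -0.42. With cordycepin all 7 genes of this role lay between 0.16 and 0.66.

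Genes of nucleotide supply held some of the largest falls with cordyceps. RRM2, the S-phase subunit of ribonucleotide reductase, had signals of 160.2 in control cells, 162 with cordycepin and 35.3 with cordyceps, where it was not well above background and at least 4.54-fold lower. Under normexp, which adds an offset to every signal, the log2 ratio of RRM2 was -1.04 in place of -2.18. RRM1, its partner subunit, had 4234, 4885 and 3116, with log2 ratios of 0.42 and -0.44. TK1, the S-phase thymidine kinase, had 27111, 35455 and 9023, 1.52-fold higher with cordycepin and 3.01-fold lower with cordyceps. TYMS, thymidylate synthase, had 5095, 5257 and 2130.5, 2.39-fold lower with cordyceps, by a probe in the marked corner, and was not called under median scaling (-0.99). DUT, the dUTPase that keeps uracil out of DNA, was below control with both agents, at 20475, 14387 and 11847.

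Of all named genes 3.15% were called lower with cordyceps, and so were the 3 factors that restore chromatin behind the fork, of which CHAF1A alone kept the 2-fold call under every scaling and background correction tried. CHAF1A and CHAF1B, subunits of the histone chaperone CAF-1, had signals of 1353, 1727 and 513 and of 807, 948 and 386, which were 2.64-fold and 2.10-fold lower with cordyceps. UHRF1, which guides maintenance methylation to new DNA, had 386, 418 and 179, 2.16-fold lower. Under median scaling CHAF1B and UHRF1 had log2 ratios of -0.80 and -0.84, under normexp -0.92 and -0.83, and CHAF1B had -0.97 with the 75th percentile of commonly detected probes. Neither CHAF1B nor UHRF1 was called without the corner. With cordycepin the 3 log2 ratios were 0.57, 0.45 and 0.33.

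Among the 7 G1/S regulators, 1 was called higher with cordycepin, compared with 5.95% of all named genes. With cordyceps 2 were called lower, compared with 3.15%. The cordycepin call, of CCNE2, ended under median scaling, no scaling and normexp, as given above. CCND1, the cyclin D that acts early in G1, had signals of 526, 553 and 533 on the control, cordycepin and cordyceps arrays, and its log2 ratio with cordyceps was 0.02, the only one not below 0. Cyclin E, the partner of CDK2, is encoded by CCNE1 and CCNE2. CCNE1 had unscaled signals of 2809.6 and 4269.5 on the control and cordycepin arrays, 1.76-fold higher after scaling. CCNE2 had 57.2 and 107, 2.16-fold higher after scaling. With cordyceps CCNE1 was at 1691, a log2 ratio of -0.73, and CCNE2 was not well above background, at least 1.39-fold lower. E2F1, the activator whose sites are described above, went from 202 in control cells to 34.1 with cordyceps, at least 5.86-fold lower. It was not well above background there. With cordycepin it had an unscaled signal of 199 and a log2 ratio of 0.19 after scaling. Under normexp its log2 ratio with cordyceps was -1.35 in place of -2.55. E2F2, a second activator, had 765, 1079 and 238, 3.22-fold lower with cordyceps by a probe in the marked corner. E2F8, a repressor of the family, had 68.6, 113 and 12.0, with log2 ratios of 0.93 with cordycepin and a bound of -0.99 with cordyceps. CDC25A, the phosphatase that activates CDK2, was dim at 51.3, 62.1 and 13.5 and had a bound of -0.58 with cordyceps.

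Some probes were printed 10 times, at scattered places, and for these the marked corner can be read from the spots themselves. The 6 genes are ORC6, GINS2, PRIM1, CCND1, E2F1 and CHAF1B. The mean log2 ratio of cordyceps over control, over the spots in the corner and over the others, was -2.02 and -1.97 for GINS2, -1.01 and -1.09 for CHAF1B, and -0.97 and -0.97 for ORC6. The falls of these 3 genes were thus about as large outside the corner as inside it, although ORC6 has 1 spot there. E2F1 was not well above background on the cordyceps array, and its spots there gave signals of 25.5 to 43.5, compared with 187 to 218 in control cells. The spots of cordyceps and control did not overlap for these 4 genes and overlapped for PRIM1 and CCND1. With cordycepin the scaled spots of ORC6, GINS2, CCND1 and CHAF1B did not overlap those of control, and those of E2F1 and PRIM1 did. Without scaling, ORC6 overlapped too (up to 222 in control cells and from 211 with cordycepin), as did CCND1 (up to 561 and from 544). These spots show the repeatability of 1 labelled RNA on 1 array, with SDs of the spots between 0.027 and 0.25 in log2 units. How often the spots of other probes printed 10 times overlap was not counted, so these counts have no share to be set against.

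**Figure D3:**
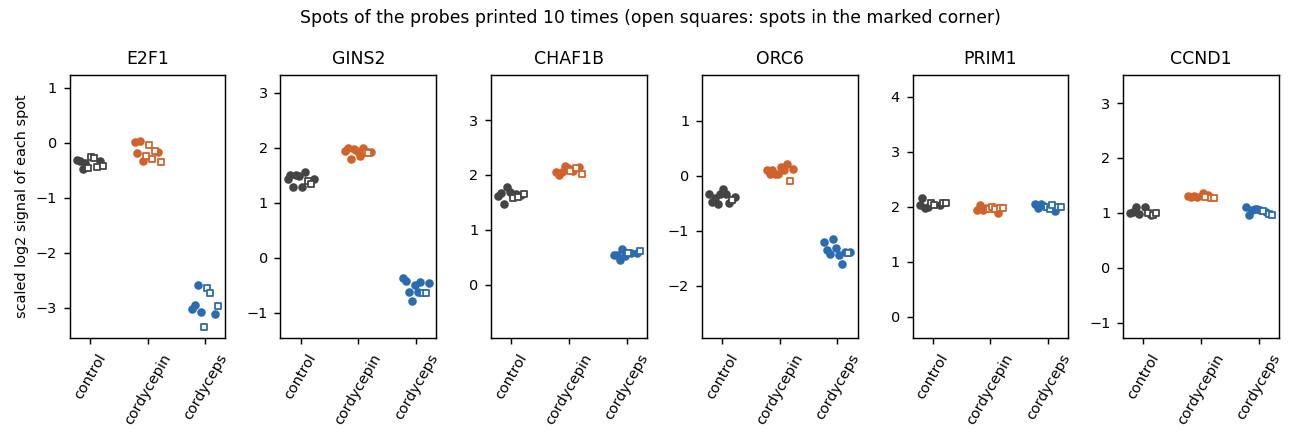
Scaled log2 signal of each spot of the 6 probes printed 10 times, on the control, cordycepin and cordyceps arrays; open squares are spots in the marked corner, and every panel spans the same number of log2 units. Spots inside and outside the corner lie together, and the cordyceps spots of E2F1, GINS2, CHAF1B and ORC6 lie below all control spots.

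Of the 44 genes, 9 had a second probe. The second probes of MCM5, PCNA and UHRF1 were well above background on all arrays and gave log2 ratios with cordyceps of -1.40, -1.29 and -0.90, beside -0.99, -1.19 and -1.11 for the brightest. MCM7 gave -0.32 beside -0.65, and DUT gave -0.02 beside -0.79, so the lower level of DUT with cordyceps rests on 1 of its 2 probes. With cordycepin the second probes of MCM5, PCNA, UHRF1, MCM7 and DUT gave -0.53, 0.15, 0.41, 0.27 and -0.24, each in the direction of the brightest probe. The second probe of POLE, dim but well above background on the control and cordycepin arrays, gave 0.28, opposite to the -0.09 of the brightest, and that of RFC3 gave 0.48, beside 0.27. For CHAF1A the second probe was well above background with cordycepin alone. For CCNE2 it was so on no array, and the cordycepin call of CCNE2 thus rests on 1 dim probe.

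Further genes of the same pathway were counted as whole lists. Of 46 other replication genes measured with cordyceps, 10 were 2-fold or more lower (21.7%, compared with 3.15% of all named genes), none was higher, and the median log2 ratio was -0.55. TICRR, which helps to load CDC45, was 3.02-fold lower, the histone chaperone gene ASF1B 2.55-fold and FANCD2, of interstrand crosslink repair, 2.48-fold. The origin recognition subunits ORC2, ORC3, ORC4 and ORC5, in contrast to ORC1 and ORC6, had ratios of 0.13, -0.09, 0.24 and 0.14. The probe of ORC3 lies in the marked corner, as does the dim probe of ORC1. Under normexp the log2 ratios of ORC1 and ORC6 with cordyceps were smaller, at -0.30 and -0.64. With cordycepin, 4 of 47 of these genes were 2-fold higher (8.51%), not far from the 5.95% of all named genes, and none was lower, with a median of 0.34. The highest were CLSPN, a checkpoint adaptor at the fork, at least 3.03-fold, DNMT1, the maintenance methyltransferase, 2.36-fold, and RRM2B, the p53-inducible subunit of ribonucleotide reductase, 2.25-fold.

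Among 29 further genes of G1/S control measured, 7 were 2-fold lower with cordyceps (24.1%, beside the same 3.15%), with a median of -0.28. The lowest were CCND3, 3.02-fold, CCNA2, the S-phase cyclin, 2.93-fold, and E2F7, a partner of E2F8 in repression, 2.42-fold. With cordycepin E2F7 was 3.08-fold higher after scaling, with unscaled signals of 329 in control cells and 875. CDKN1A, the p53-inducible CDK inhibitor p21, was 3.03-fold higher after scaling, with unscaled signals of 142 and 370.5. The median of the list with cordycepin was 0.22. CDKN1A was also above control with cordyceps, with 269 and a log2 ratio of 0.92. RB1 and MYC differed little, with log2 ratios of 0.39 and 0.00 with cordycepin and 0.03 and -0.08 with cordyceps. CDKN2A, a locus that A549 cells are known to have lost, gave signals of 4587, 1962 and 2881 by the probe of 1 transcript, a log2 ratio of -1.01 with cordycepin, while the probe of its main transcript was not well above background on any array; its signal cannot be read as intact p16.

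Mitosis genes, which follow S phase, lay mostly on the same sides of control. With cordyceps 23 of 36 were 2-fold lower (63.9%, compared with 3.15% of all named genes), with a median of -1.07, among them KIF20A, 3.31-fold by a probe in the marked corner, AURKB, 3.02-fold, and CDCA3, 2.90-fold. With cordycepin 34 of 36 had a ratio above 0, with a median of 0.53, and the exceptions were CDC25B, at -0.90, and BIRC5, at -0.07, named after their values were seen. ANLN and INCENP were 2-fold higher, 5.56% of the list and no more than the 5.95% of all named genes. Whether the replication genes differ from the mitosis genes was not tested.

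**Figure D4:**
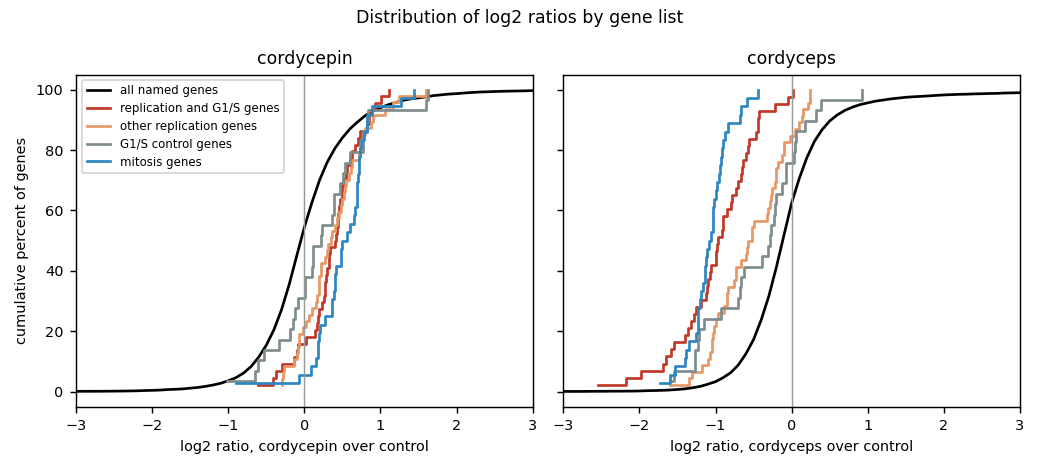
Cumulative percent of genes at or below each log2 ratio over control, for cordycepin (left) and cordyceps (right), in all named genes and in 4 lists. With cordyceps the curves of the replication and G1/S genes (median -0.97) and of the mitosis genes (median -1.07) lie to the left of that of all named genes (median -0.12), and with cordycepin they lie to the right of it up to a ratio near 1.

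Genes with and without an E2F word in their promoter windows had medians close to each other. With cordyceps, the 21 measured genes with a word had a median log2 ratio of -0.92, with 10 called lower, and the 16 whose windows hold none had -0.94, with 7 called. The share of all named genes called lower was 3.15%. With cordycepin the medians were 0.31 for 22 genes and 0.44 for 16.

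Scaling between arrays changed the ratios, while the distance of these genes from all others hardly changed. For no scaling and for scalings that subtract a single value per array, that distance is nearly fixed by construction. Median scaling moved the median of all named genes from -0.05 to -0.31 with cordycepin and from -0.12 to 0.16 with cordyceps. The median of the replication and G1/S genes moved with it, to 0.15 and -0.70. Relative to the median of all named genes, it stood 0.46 above with cordycepin under 75th percentile scaling, median scaling, quantile normalization and no scaling. With cordyceps it stood at -0.86 under 75th percentile, median and no scaling and at -0.83 under quantile normalization. Under normexp it stood at 0.39 with cordycepin and -0.73 with cordyceps, and without a detection filter at 0.33 and -0.98. With spots of the corner removed before scaling, it stood at 0.47 with cordycepin and -0.82 with cordyceps. In that setting 12 of 40 genes were called lower with cordyceps, compared with 2.20% of all named genes.

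**Figure D5:**
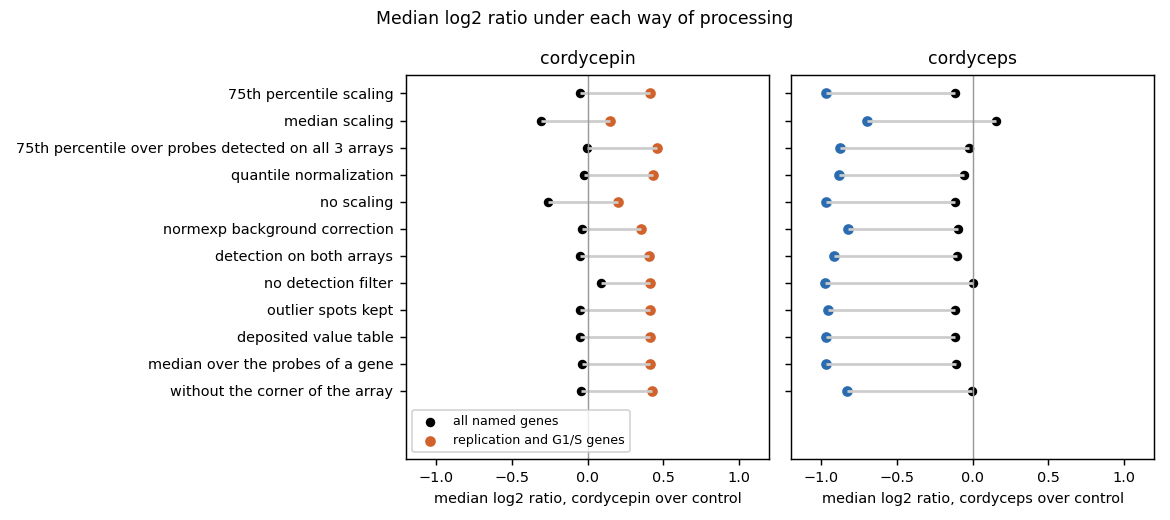
Median log2 ratio over control of the replication and G1/S genes (coloured) and of all named genes (black) under each way of processing, for cordycepin (left) and cordyceps (right). Both medians shift together with the scaling, and the distance between them stays near 0.46 with cordycepin and -0.86 with cordyceps under the scalings tried. Where a single value is subtracted per array, that distance is nearly fixed by construction, and under normexp it was 0.39 and -0.73.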

How the data were processed

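The authors deposited the Feature Extraction output of each array (Agilent Feature Extraction 11.5.1.1, per the file headers), whose intensity values were background-subtracted and detrended within the array and were not scaled between arrays. A series table of intensity values, deposited beside them, holds the mean processed signal of each probe. The methods name GeneSpringGX for normalization, and name Cy3 and Cy5 for vehicle and cordycepin, whereas the files hold a single Cy3 channel per condition.

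From the scanner files, control spots and outlier spots were left out, log2 signals were averaged over the spots of a probe, and each array's 75th percentile was subtracted. Detection of a probe required 50% or more of its spots to be well above background. Accessions without versions were matched to RefSeq transcripts (GRCh38.p14 table, names only, since the design uses hg19), and the probe with the highest mean represents a gene. The marked corner holds spots beyond 5/8 of the rows and beyond the middle column. There was 1 array per condition, so ratios are described without a test, and precision is limited by the number of arrays. The 45 genes and the other lists were chosen with earlier results of these data known. All 45 genes are reported by role, with values per array for called genes and for others of each role. From other lists, up to 3 of the largest rises and falls are named, with CDKN1A, CDKN2A, RB1 and MYC. ORC2 to ORC5 were named after their values were seen.

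Alternatives were median, quantile and no scaling, a 75th percentile of the probes detected on the 3 arrays, normexp with an offset of 50 on the median spot signal, other detection rules, outlier spots kept, the series table, the median over probes, no corner, and thresholds of 1.5-fold and 3-fold. The calling step was run on simulated data with changes well beyond 2-fold and noise below the SD of a single probe. That run does not bear on calls near the threshold. Python 3.11.15, numpy 2.4.6, pandas 2.3.3, matplotlib 3.10.9, R 4.3.3 and limma 3.58.1 were used.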

Additional observations from a re-analysis of the deposited data

How the results depend on the processing

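With cordycepin, 2 of the 44 genes were called, both higher, where 5.95% of all named genes were called higher and 3.57% lower. The count was 0 under median scaling, where these shares were 3.74% and 7.41%, and 0 without scaling (4.12% and 6.33%). It was also 0 under normexp (2.44% and 1.69%) and at the 3-fold threshold (2.45% and 0.94%). Under quantile normalization it was 1 (5.45% and 4.10%). At 1.5-fold it was 12, with 11 higher and 1 lower, where 13.3% and 11.8% of all named genes were called. With cordyceps, 18 of 43 were called, all lower, where 3.15% of all named genes were called lower. The count, again all lower, was 11 under median scaling (1.33% of all named genes), 34 at 1.5-fold (12.5%) and 6 at 3-fold (0.54%). Median scaling moved the median of the genes from 0.41 to 0.15 with cordycepin and from -0.97 to -0.70 with cordyceps. Scaling and thresholds act by construction. The cause of the normexp count was not tested. Under the other alternatives the counts kept within 1.5 times and the medians within the spread of a single probe. Over the 12 settings other than the thresholds, 30 of 44 genes were above 0 in all with cordycepin and 6 below, and 40 of 43 were below 0 in all with cordyceps, the exceptions being GINS3, PRIM1 and CCND1. No paired analysis was possible because each condition has 1 array. Bounds of dim genes (E2F1, RRM2, MCM10, E2F8, CDC25A and CCNE2) are limited by the background of the cordyceps array.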
